A study of Mus musculus with 36 samples.

Results

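Fc receptors bind the constant part of antibodies, and the genes described here are the mouse Fc gamma receptors with the signalling genes that act directly below them. They are 9 genes, taken by name: the activating receptors *Fcgr1*, *Fcgr3* and *Fcgr4*, the inhibitory receptor *Fcgr2b*, the common signalling chain *Fcer1g*, the kinases *Lyn* and *Syk*, the phospholipase *Plcg2* and the inositol phosphatase *Inpp5d*. All 9 were found among the 53274 genes listed at every age. They were measured by RNA-seq in brains of mice whose *Tpp1* gene was disrupted by gene targeting in the germ line (*Tpp1*-/-), a model of CLN2 disease, a childhood lysosomal storage disorder caused by loss of tripeptidyl peptidase 1. Forebrain/midbrain (F/M) and cerebellum (Cb) of *Tpp1*-/- mice and unaffected controls were collected at 1, 2 and 3 months, with 3 libraries in each of 12 groups and 36 in all. Controls were wild type, except that control replicate 3 of 1 month was labelled *Tpp1*+/- in both regions. Mice of 2 months were all male, and each group of 1 and 3 months held both sexes in the same numbers in controls and *Tpp1*-/-. The disruption is in every cell, and the tissue is bulk, so that more cells of a type and more RNA per cell cannot be told apart.

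An activating Fc receptor that binds an immune complex signals through an immunoreceptor tyrosine-based activation motif (ITAM), a pair of tyrosines that, once phosphorylated by Src family kinases such as *Lyn*, recruits *Syk*. *Syk* then activates adaptors and phospholipase C gamma 2, the product of *Plcg2*, which raises calcium and drives phagocytosis and cytokine release. *Fcgr2b* carries the opposite element, an inhibitory motif (ITIM) that recruits SHIP1, the phosphatase encoded by *Inpp5d*, and dampens the signal. In the brain these genes are known mainly from microglia and other macrophages, although *Lyn* is also made by neurons.

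The ITAM of *Fcer1g* is shown because the receptors *Fcgr1*, *Fcgr3* and *Fcgr4* depend on this chain to signal, and the ITIM of *Fcgr2b* because it sets that receptor apart from them. Both stretches are coding sequence of GENCODE M21 transcripts (GRCm38), found by searching the translated sequence for a pair of tyrosines, each 3 residues before leucine or isoleucine, and for the ITIM pattern. The capitals mark the tyrosine codons.
*Fcer1g*, residues 65 to 79 of 86: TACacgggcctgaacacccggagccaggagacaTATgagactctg
*Fcgr2b*, residues 317 to 322 of 340: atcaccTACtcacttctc

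*Fcgr2b* (ENSMUSG00000026656, chr1:170958617-170976547, minus strand), *Fcgr4* (ENSMUSG00000059089, chr1:171018920-171029761, plus strand), *Fcgr3* (ENSMUSG00000059498, chr1:171051174-171064935, minus strand) and *Fcer1g* (ENSMUSG00000058715, chr1:171229572-171234365, minus strand) lie within 275749 bases of chromosome 1 in GRCm38. *Inpp5d* (ENSMUSG00000026288, chr1:87620312-87720507, plus strand) is elsewhere on chromosome 1, *Fcgr1* (ENSMUSG00000015947, chr3:96282909-96293969, minus strand) on chromosome 3, *Lyn* (ENSMUSG00000042228, chr4:3678115-3813122, plus strand) on chromosome 4, *Plcg2* (ENSMUSG00000034330, chr8:117498291-117635142, plus strand) on chromosome 8 and *Syk* (ENSMUSG00000021457, chr13:52583173-52648792, plus strand) on chromosome 13. Values are summed over the exons of each gene. *Fcgr2b* and *Fcgr3* are close relatives, and the following 129 coding bases, the longest run that both share, are shown because a read from it cannot be told apart between the genes.
*Fcgr2b* and *Fcgr3*: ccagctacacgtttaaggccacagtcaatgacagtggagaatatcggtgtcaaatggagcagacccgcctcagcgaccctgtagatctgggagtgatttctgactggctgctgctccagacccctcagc
Over all transcripts, 166 of the 1733 distinct 50-base words of *Fcgr3* (9.58%) and 249 of the 5685 of *Fcgr2b* (4.38%) also occur in another gene, 50 bases being the read length. *Lyn* shares 543 of 4065 words (13.4%) with the pseudogene *Gm11787*, which had 0 or 1 count in each library, and *Inpp5d* shares 42 of 7698 (0.546%) with other genes, and *Fcgr1*, *Fcgr4*, *Fcer1g*, *Syk* and *Plcg2* share none. The values of *Fcgr2b*, *Fcgr3*, *Lyn* and *Inpp5d* are uncertain to that extent.

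The 250 bases before the start of *Fcgr3*, *Fcer1g* and *Inpp5d* are shown because these genes, with *Fcgr2b*, were higher in *Tpp1*-/- Cb at 3 months. They are RefSeq promoter entries of GRCm38.p6, given 5′ to 3′ on the strand of the gene, and the start used for *Fcgr3* lies inside the span given above. Capitals mark GAGGAA, the core of sites for the myeloid factor PU.1, or its reverse complement TTCCTC.
*Fcgr3*, chr1:171059395-171059644, minus strand: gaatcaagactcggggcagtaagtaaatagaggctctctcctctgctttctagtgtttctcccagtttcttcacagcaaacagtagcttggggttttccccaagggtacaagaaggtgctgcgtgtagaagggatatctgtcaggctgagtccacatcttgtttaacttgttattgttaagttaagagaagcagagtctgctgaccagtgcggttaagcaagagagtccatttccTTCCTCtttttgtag
*Fcer1g*, chr1:171234350-171234599, minus strand: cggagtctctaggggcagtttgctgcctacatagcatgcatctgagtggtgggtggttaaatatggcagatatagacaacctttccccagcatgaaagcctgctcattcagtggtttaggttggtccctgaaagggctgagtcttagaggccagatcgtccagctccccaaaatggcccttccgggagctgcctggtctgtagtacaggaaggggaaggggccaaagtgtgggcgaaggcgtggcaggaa
*Inpp5d*, chr1:87620062-87620311, plus strand: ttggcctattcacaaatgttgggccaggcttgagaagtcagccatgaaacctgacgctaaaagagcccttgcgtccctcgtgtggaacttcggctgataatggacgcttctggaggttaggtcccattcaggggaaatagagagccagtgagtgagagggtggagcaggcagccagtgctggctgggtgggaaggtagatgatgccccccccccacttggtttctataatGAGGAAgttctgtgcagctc
The match began 15 bases before the start of *Fcgr3* and 20 bases before that of *Inpp5d*, and *Fcer1g*, like *Fcgr2b* (sequence not shown), had none in this window. RefSeq entries were found for 8 of the 9 genes (not *Lyn*), with 10 entries in all. A match was in 6 of the 10 entries (*Fcgr1*, both of *Fcgr3*, *Fcgr4*, *Inpp5d* and 1 of the 2 of *Syk*), where 23.3% of all 32851 promoter entries held one. The entries of *Fcgr3* overlap and hold the same match, and by gene 5 of 8 had one.

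The libraries held 10609896 to 29942380 counts (median 21049839), and the 9 genes are of low to moderate level in them, with at most 734 counts (*Lyn*) in a library. *Tpp1* lay between 42.1 and 110.8 CPM (counts scaled to library size by TMM) in the controls and between 16.1 and 27.8 CPM in the *Tpp1*-/- libraries, with no overlap at any age or region. All 10 cerebellar and all 10 forebrain marker genes followed the region labels at every age. The root mean square log2 difference of a library from the others of its group was 0.2199 at the median, and *Tpp1*-/- replicate 1 of Cb at 3 months stood farthest apart (0.480). Each age was counted with its own annotation and strand setting, so age and processing cannot be told apart.

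**Figure D1:**
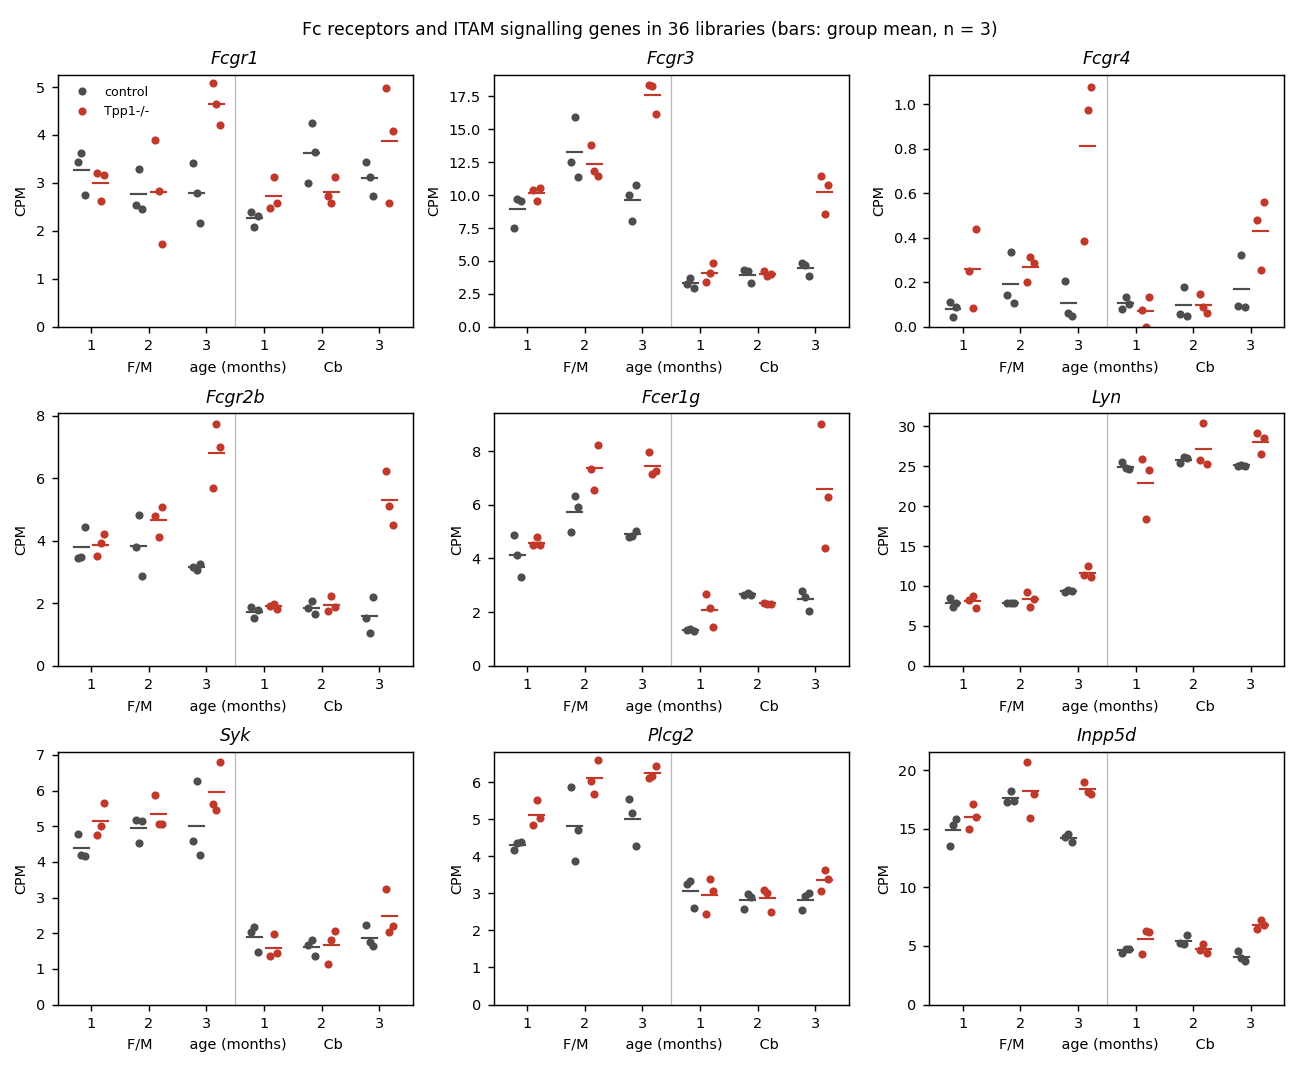
Level of each of the 9 genes in every library (CPM, y axis from 0) by region and age in months (x axis), controls in grey and *Tpp1*-/- in red, with a bar at the mean of 3 libraries. At 3 months the *Tpp1*-/- libraries of *Fcgr3*, *Fcgr2b*, *Fcer1g* and *Inpp5d* lie above all controls in both regions, and at 1 and 2 months most groups overlap.

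At 3 months the receptors *Fcgr3* and *Fcgr2b* were higher in *Tpp1*-/- mice in both regions, and *Fcer1g* and *Inpp5d* were higher in Cb. The largest change that passed the test was that of *Fcgr2b* in Cb, 3.32-fold (log2 fold change 1.73, standard error 0.23). Called here means an adjusted p under 0.1 (edgeR quasi-likelihood test, adjusted over all genes tested) with a fold change of at least 1.5. In Cb 4 of the 9 genes were called, all higher, where 0.859% of the 17224 genes tested were called and 0.673% were called higher. In F/M 2 of 9 were called, both higher, where 0.464% of all genes were called and 0.412% were called higher. In the fits of single ages *Fcgr4* passed the filter on low counts at 3 months alone, through its *Tpp1*-/- libraries, and is left out of the next counts. The log2 fold changes of the other 8 genes were above 0 in each region, with a median of 0.49 in F/M and 0.58 in Cb, and the median over all genes tested was -0.00 in both.

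*Fcgr3*, the low-affinity activating receptor for IgG, had the highest level per length of the Fc gamma receptors at 3 months. In control F/M of 3 months it measured 10.04, 8.02 and 10.8 CPM and in *Tpp1*-/- F/M 18.4, 18.3 and 16.2 CPM. In control Cb it measured 4.83, 4.72 and 3.83 CPM and in *Tpp1*-/- Cb 11.4, 8.55 and 10.8 CPM. Control and *Tpp1*-/- libraries were apart in both regions, and the range of *Tpp1*-/- Cb overlapped with that of control F/M. On the log2 scale the difference was 0.87 in F/M (standard error 0.15, edgeR adjusted p = 0.0198) and 1.202 in Cb (standard error 0.16, edgeR adjusted p = 0.00139).

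*Fcgr2b*, the inhibitory receptor, measured 3.16, 3.05 and 3.25 CPM in control F/M and 5.67, 7.73 and 6.996 CPM in *Tpp1*-/- F/M. In Cb its controls measured 1.53, 1.05 and 2.19 CPM and the *Tpp1*-/- libraries 6.22, 5.12 and 4.51 CPM. Each *Tpp1*-/- library was above every control of its region. The log2 fold change was 1.10 in F/M (standard error 0.22, edgeR adjusted p = 0.0472) and 1.73 in Cb (standard error 0.23, edgeR adjusted p = 0.00158). Both calls in F/M were lost when some replicates were left out, each from both regions at once. The log2 fold changes were then 1.01 to 1.10 for *Fcgr2b* and 0.75 to 0.89 for *Fcgr3*. Without control replicate 1 or 2 neither *Fcgr3* nor *Fcgr2b* was called (0 of 9 genes), and without *Tpp1*-/- replicate 2 or 3 *Fcgr3* alone was (1 of 9). With the replicate number as a block 1 of 9 was called in F/M, *Fcgr3*, and in Cb 4 of 9 were called whichever replicate was left out.

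*Fcer1g*, the chain that carries the ITAM shown above, measured 2.78, 2.57 and 2.05 CPM in control Cb and 9.01, 4.402 and 6.29 CPM in *Tpp1*-/- Cb. The highest of these values came from replicate 1, the library that stood farthest from its group. The log2 fold change in Cb was 1.41 (standard error 0.23, edgeR adjusted p = 0.00731). In F/M the controls measured 4.79, 4.85 and 5.03 CPM and the *Tpp1*-/- libraries 7.95, 7.14 and 7.25 CPM. These groups did not overlap either, but the log2 fold change of 0.61 (standard error 0.21) did not pass the test (edgeR adjusted p = 0.557). With the spread estimated from the 6 libraries of a region alone it passed in F/M (edgeR adjusted p = 0.00676) and did not pass in Cb (edgeR adjusted p = 0.186).

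*Inpp5d*, which encodes the phosphatase that opposes phosphoinositide 3-kinase, measured 4.55, 3.99 and 3.74 CPM in control Cb and 6.42, 7.20 and 6.81 CPM in *Tpp1*-/- Cb. The log2 fold change was 0.73 (standard error 0.12, edgeR adjusted p = 0.00731), the smallest of the 4 calls in Cb, and with the 6 Cb libraries alone it was not called (edgeR adjusted p = 0.368). In F/M it measured 14.3, 14.5 and 13.9 CPM in controls and 19.0, 18.1 and 18.004 CPM in *Tpp1*-/- mice. The groups did not overlap, at a log2 fold change of 0.37 (standard error 0.10, edgeR adjusted p = 0.297).

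The other activating receptors did not pass the test, although each was called in F/M under another setting. *Fcgr1*, the high-affinity receptor for IgG, differed by 0.74 on the log2 scale in F/M (standard error 0.24, edgeR adjusted p = 0.443), with 3.41, 2.80 and 2.17 CPM in controls and 5.09, 4.65 and 4.22 CPM in *Tpp1*-/- mice, and by 0.33 in Cb, where the groups overlapped. With the 6 F/M libraries alone it was called (edgeR adjusted p = 0.0188). *Fcgr4*, which binds IgG2 subclasses, was near the limit of detection, with 4, 1 and 1 counts in control F/M and 8, 18 and 21 in *Tpp1*-/- F/M. The summed counts, 6 against 47, gave a ratio of 7.49 with an exact 95% interval of 3.20 to 21.4, and in Cb 11 against 30 counts gave 2.54 (1.24 to 5.63). At 1 and 2 months, with 5 to 17 counts a group and no test across genes, the ratio was 3.20 (1.13 to 11.1) and 1.32 (0.541 to 3.20) in F/M and 0.715 (0.184 to 2.48) and 1.06 (0.305 to 3.82) in Cb. These intervals cover counting error only and not the difference between mice. In the test across all genes the edgeR adjusted p of *Fcgr4* was 0.119 in F/M and 0.769 in Cb. It was called in F/M by DESeq2 (adjusted p = 0.0565), with no filter on low counts (edgeR adjusted p = 0.00189) and without *Tpp1*-/- replicate 1 (edgeR adjusted p = 0.0535). Its log2 fold change of 2.85 in F/M was 3.73 without control replicate 1, and that of 1.32 in Cb was 2.16 without control replicate 2.

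Neither the kinases nor the phospholipase passed the test. *Lyn*, the Src family kinase, measured 9.28, 9.51 and 9.31 CPM in control F/M and 11.3, 12.5 and 11.1 CPM in *Tpp1*-/- F/M, 0.31 apart on the log2 scale (standard error 0.10, edgeR adjusted p = 0.383). In Cb it measured 25.0, 25.2 and 25.1 CPM in controls and 29.2, 26.5 and 28.6 CPM in *Tpp1*-/- mice, 0.16 apart on the log2 scale (standard error 0.09, edgeR adjusted p = 0.831). *Syk*, the kinase that docks on a phosphorylated ITAM, had log2 fold changes of 0.26 and 0.42 (standard errors 0.21 and 0.23) in F/M and Cb, and *Plcg2* of 0.32 and 0.25 (standard errors 0.15 and 0.16). The groups of *Syk* overlapped in both regions. Counted without a test and without *Fcgr4*, 7 of 8 genes in F/M and 6 of 8 in Cb had every *Tpp1*-/- library above every control, where 11.8% and 4.46% of all genes tested did. None of the 8 had every *Tpp1*-/- library below every control, as 12.3% and 4.2% of all genes had.

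**Figure D2:**
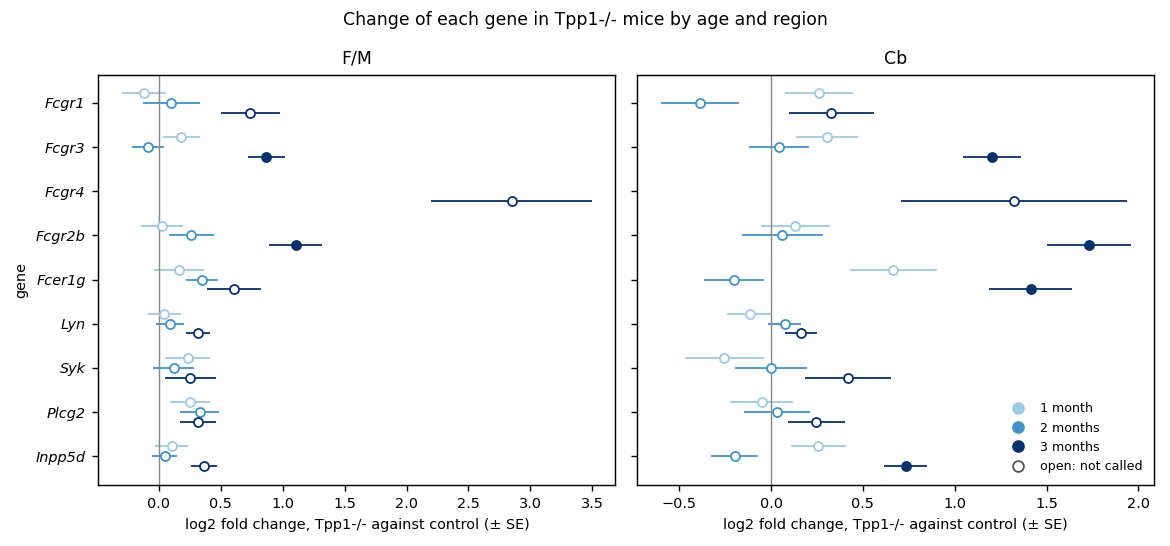
Log2 fold change of each gene in *Tpp1*-/- against control mice (x axis, bars are standard errors) at 1, 2 and 3 months in F/M (left) and Cb (right), from 3 libraries a group. Filled points were called, which were *Fcgr3* and *Fcgr2b* in F/M and these with *Fcer1g* and *Inpp5d* in Cb, all at 3 months.

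At 3 months no difference in the genotype effect between the regions passed the test. Without *Fcgr4* the effect was larger in Cb for 5 of 8 genes and larger in F/M for 3. The effect of Cb less the one of F/M was 0.81 for *Fcer1g* (log2, standard error 0.31), 0.63 for *Fcgr2b* (standard error 0.32), 0.37 for *Inpp5d* (standard error 0.16) and 0.33 for *Fcgr3* (standard error 0.22), and it was -1.53 for *Fcgr4*, -0.41 for *Fcgr1*, -0.15 for *Lyn* and -0.07 for *Plcg2*. With edgeR the adjusted p was 1.00 for each, 2 of the 9 genes (*Fcer1g* and *Inpp5d*) had an unadjusted p under 0.05, as 3.51% of all genes had, and 0.00581% of all genes were called. DESeq2 and limma-voom called none of the 9 either. At 1 and 2 months the same tools called 0 of 8 (0.0% and 2.97% of all genes with edgeR), and with edgeR 0 and 1 of the 8 had an unadjusted p under 0.05, as 1.94% and 11.5% of all genes had.

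At 1 and 2 months none of the 8 genes tested was called in either region by edgeR, DESeq2 or limma-voom. At 1 month 0.0112% of all genes were called in each region, none of them higher (0.0%). At 2 months 0.737% were called in F/M (0.65% higher) and 2.05% in Cb (0.25% higher). With edgeR an unadjusted p under 0.05 was seen for 0 and 1 of 8 genes in F/M and Cb at 1 month, as for 1.89% and 7.66% of all genes, and for 2 and 0 at 2 months, as for 16.9% and 9.67%. In F/M the log2 fold changes lay between -0.12 (*Fcgr1*) and 0.25 (*Plcg2*) at 1 month and between -0.09 (*Fcgr3*) and 0.35 (*Fcer1g*) at 2 months. In Cb they lay between -0.25 (*Syk*) and 0.67 (*Fcer1g*) at 1 month and between -0.39 (*Fcgr1*) and 0.07 (*Lyn*) at 2 months.

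The groups of single genes were apart at these ages too. At 1 month 1 of 8 genes in F/M (*Plcg2*) and 2 of 8 in Cb (*Fcgr1* and *Fcer1g*) had every *Tpp1*-/- library above every control, as 8.31% and 4.26% of all genes had, and 0 of 8 had them all below, as 6.49% and 3.71% of all genes had. At 2 months 1 of 8 in F/M was above (*Fcer1g*) and 0 of 8 in Cb, against 9.46% and 7.65%, and 0 of 8 in F/M and 2 of 8 in Cb (*Fcer1g* and *Inpp5d*) were below, against 8.84% and 10.5%.

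In Cb of 1 month *Fcer1g*, the member apart most often, measured 1.34, 1.35 and 1.28 CPM in controls and 2.67, 2.14 and 1.45 CPM in *Tpp1*-/- mice (edgeR adjusted p = 0.630). Without *Tpp1*-/- replicate 3, the lowest of them, it passed (edgeR adjusted p = 0.0737, log2 fold change 0.87). The summed microglia identity genes were apart too in Cb of 1 month (142.2 to 171.1 CPM in controls and 172.6 to 182.9 CPM in *Tpp1*-/- mice). In Cb of 2 months the *Tpp1*-/- libraries (2.33, 2.32 and 2.31 CPM) were all below the controls (2.65, 2.71 and 2.65 CPM), and in F/M of 2 months they were above them (6.56 to 8.23 against 4.98 to 6.33 CPM). None of these differences passed the test, nor did the difference between the regions at 2 months (-0.55, standard error 0.21, edgeR adjusted p = 0.265). At 2 months the groups also differed in markers of neighbouring tissue, with 4 and 3 of 10 choroid plexus genes called higher in F/M and Cb and 5 of 12 midbrain and thalamus, 2 of 10 forebrain, 3 of 10 monocyte and neutrophil and 1 of 7 B cell genes called lower in Cb. In F/M the summed midbrain and thalamus genes (355.9 to 412.6 CPM in controls and 456.8 to 486.1 CPM in *Tpp1*-/- mice) and border macrophage genes (32.7 to 35.1 and 37.2 to 39.1 CPM) were higher in every *Tpp1*-/- library, and the forebrain genes were lower (1791 to 1832 and 1577 to 1609 CPM). In Cb the choroid plexus sum (1786 to 2155 and 2780 to 3059 CPM) and the mast cell and basophil sum (222.2 to 234.1 and 246.9 to 271.5 CPM) were higher in every *Tpp1*-/- library, and the B cell sum was lower (6.34 to 6.87 and 3.41 to 4.77 CPM). The mast cell and basophil list holds *Kit*, which neurons also make, and its *Ms4a2* was at 0 counts in both Cb groups of 2 months. The part of these markers in the values was not tested.

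The genotype effect was larger at 3 months than at 2 months for the 4 genes called in Cb, and than at 1 month for 2 of them. Between 2 and 3 months the log2 fold change in Cb grew by 1.67 for *Fcgr2b*, 1.62 for *Fcer1g*, 1.16 for *Fcgr3* and 0.94 for *Inpp5d* (standard errors 0.29, 0.29, 0.23 and 0.18, edgeR adjusted p = 0.000788, 0.000912, 0.00281 and 0.00207), so that 4 of 9 genes passed where 1.44% of 18322 genes did. In F/M *Fcgr3* alone passed (0.97, standard error 0.20, edgeR adjusted p = 0.0276), where 0.393% of all genes did, and it did not pass without control replicate 1 or 2 or without *Tpp1*-/- replicate 2 or 3. From 1 to 3 months *Fcgr2b* (1.604, standard error 0.29, edgeR adjusted p = 0.00384) and *Fcgr3* (0.90, standard error 0.23, edgeR adjusted p = 0.0854) passed in Cb, 2 of 9 genes against 0.458% of all, and 0 of 9 in F/M, against 0.153%. In F/M 3 of the 9 had an unadjusted p under 0.05 with edgeR in that change, as 5.41% of all genes had, and limma-voom called none. Neither *Fcer1g* nor *Inpp5d* passed in Cb from 1 to 3 months (edgeR adjusted p = 0.510 and 0.416), and *Fcgr2b* did not pass in F/M from 2 to 3 months (edgeR adjusted p = 0.258). In Cb the call of *Fcgr3* was lost whichever replicate was left out, and that of *Fcgr2b* without control replicate 1 (edgeR adjusted p = 0.104). A replicate left out of these comparisons was left out of both regions at every age. These comparisons share the libraries of 3 months.

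In control mice most of these genes were higher in F/M than in Cb, and *Lyn* was the opposite. Of the genes tested, 6 of 8 were called at 1 month, 7 of 8 at 2 months and 7 of 9 at 3 months, where 36.9%, 39.3% and 37.7% of all genes were called. Called higher in F/M were 5, 6 and 6 of them, against 21.1%, 21.9% and 19.9% of all genes. *Inpp5d* differed most in that direction at 3 months, with 13.9 to 14.5 CPM in F/M and 3.74 to 4.55 CPM in Cb (log2 fold change 1.80, standard error 0.12, edgeR adjusted p = 1.11e-08). The log2 fold changes of 1, 2 and 3 months were 1.43, 1.75 and 1.11 for *Fcgr3*, 1.63, 1.10 and 0.99 for *Fcer1g*, 1.13, 1.05 and 0.98 for *Fcgr2b*, 1.22, 1.61 and 1.41 for *Syk* and 1.68, 1.70 and 1.80 for *Inpp5d*, all called. *Plcg2* was called at 2 and 3 months (0.77 and 0.82) and at 1 month was under the fold minimum (0.50).

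*Lyn* was lower in F/M by 1.67, 1.71 and 1.42 on the log2 scale at the 3 ages (edgeR adjusted p = 3.21e-08, 1.90e-11 and 1.64e-08), with 7.32 to 9.51 CPM over the 9 F/M control libraries and 24.6 to 26.1 CPM over the 9 Cb control libraries. *Fcgr1* was not called at any age, with log2 fold changes of 0.52, -0.40 and -0.15, the first under the fold minimum (edgeR adjusted p = 0.0245). Over the 12 microglia identity genes, all 12 were called higher in F/M at each age, with a median log2 fold change between 1.54 and 1.63. Among the members *Lyn* was called in the opposite direction, and *Fcgr4*, tested at 3 months alone, was not called (-0.63, edgeR adjusted p = 0.560).

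**Figure D3:**
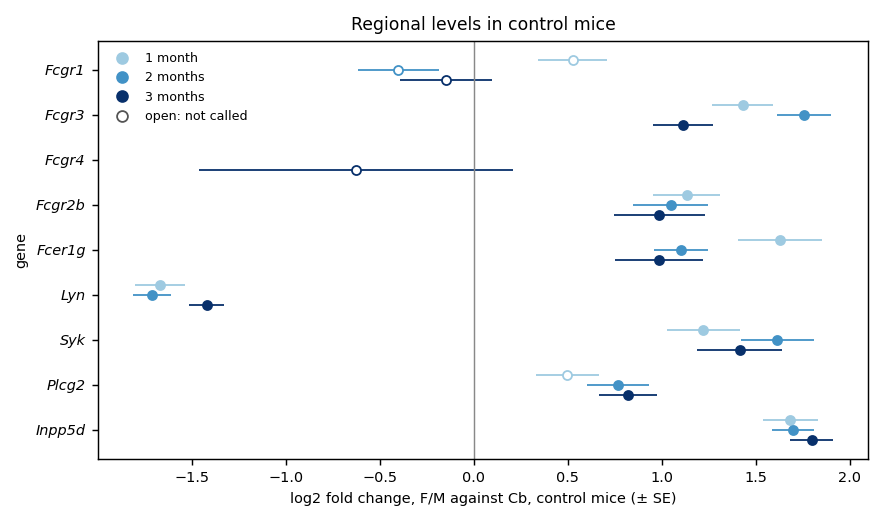
Log2 fold change of F/M against Cb in control mice (x axis, bars are standard errors) for each gene at 1, 2 and 3 months, from 3 libraries a group. *Lyn* lies between -1.42 and -1.71 at every age, *Fcgr1* and *Fcgr4* were not called, and the others lie to the right of 0.

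Compared per length of exon (CPM per kilobase), control F/M of 3 months was led by *Fcer1g* (5.59 ± 0.1403, SD, n = 3) and *Fcgr3* (5.54 ± 0.826), whose libraries overlapped, followed by *Lyn* (2.30 ± 0.0312) and *Inpp5d* (1.87 ± 0.0430), each apart from its neighbours. *Plcg2* (1.16 ± 0.151) overlapped with *Fcgr1* (1.08 ± 0.241), *Fcgr2b* (0.545 ± 0.0178) overlapped with *Syk* (0.536 ± 0.119), and *Fcgr4* was lowest (0.0837 ± 0.0683). In control Cb *Lyn* was first (6.17 ± 0.0264), apart from *Fcer1g* (2.82 ± 0.432) and *Fcgr3* (2.57 ± 0.317), which overlapped. In *Tpp1*-/- Cb *Fcer1g* (7.52 ± 2.65), *Lyn* (6.90 ± 0.352) and *Fcgr3* (5.91 ± 0.876 CPM per kilobase) overlapped in that order.

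The levels were also set against the summed CPM of the 12 microglia identity genes (*P2ry12*, *Tmem119*, *Cx3cr1* and others), as a description. That sum was 442.3 to 464.2 CPM in control and 500.2 to 551.5 CPM in *Tpp1*-/- F/M at 3 months, and 145.3 to 178.1 and 240.1 to 310.3 CPM in Cb. The median log2 fold change of the 12 genes was 0.04 in F/M and 0.46 in Cb. *Fcrls* was called in both regions, and 11 of the 12 were not called in F/M and 10 of the 12 were not called in Cb. Per 100 CPM of the list, *Fcgr3* was 1.61 times its control value in F/M and 1.42 times in Cb, *Fcgr2b* 1.89 and 1.99 times, and *Fcer1g* 1.34 and 1.62 times, with no overlap of the libraries. *Inpp5d* was 1.14 times its control value in F/M and 1.04 times in Cb, where the libraries overlapped. The *Tpp1*-/- libraries of *Lyn* and *Fcgr1* in Cb were all below their controls in this ratio (0.690 and 0.764 times), and those in F/M were all above them (1.09 and 1.47 times). The ratio does not say which cells carried the RNA.

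**Figure D4:**
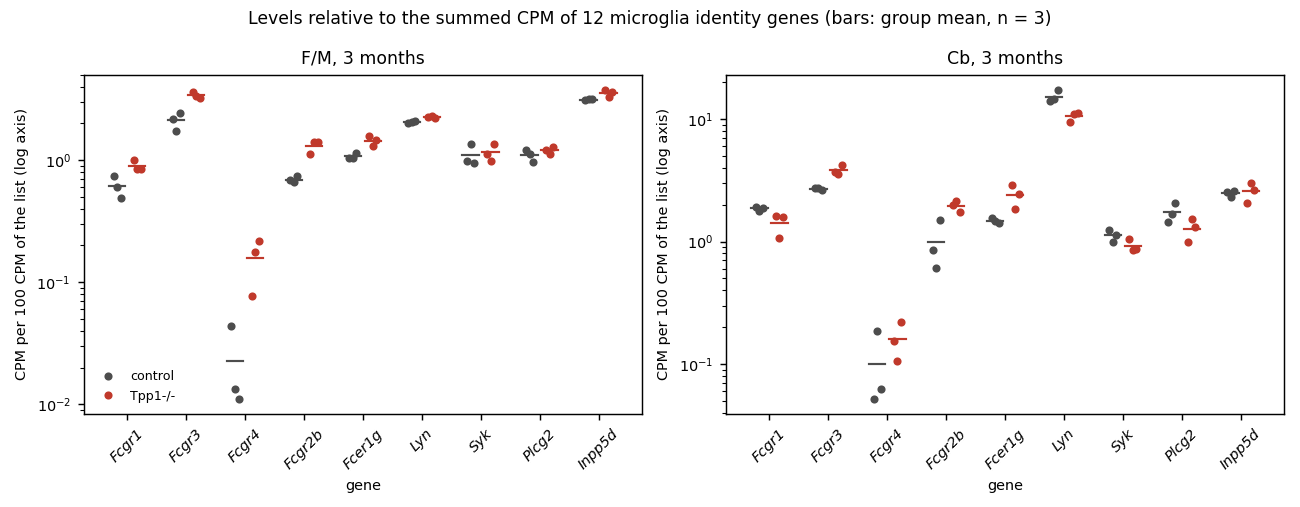
CPM of each gene per 100 CPM of the summed microglia identity genes at 3 months (log y axis) in F/M (left) and Cb (right), controls in grey and *Tpp1*-/- in red, with a bar at the mean of 3 libraries. *Fcgr3*, *Fcgr2b* and *Fcer1g* lie above their controls in both regions, and *Inpp5d* in Cb overlaps with its controls.

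Markers of other cells that carry Fc receptors were checked at 3 months. The 9 border macrophage genes (*Mrc1*, *Lyve1*, *Cd163* and others) summed to 29.8 to 30.1 CPM in control and 29.9 to 36.8 CPM in *Tpp1*-/- F/M, and to 17.7 to 23.8 and 24.1 to 26.3 CPM in Cb. None of them was called, although 9 of 9 had a log2 fold change above 0 in Cb, with a median of 0.49. Of 10 monocyte and neutrophil genes 5 were tested and 0 called, with a sum of 47.0 to 49.3 CPM in control and 49.8 to 58.5 CPM in *Tpp1*-/- Cb. Of 7 B cell genes 2 were tested and 0 called, of 8 T and natural killer cell genes 1 and 0, and of 7 mast cell and basophil genes 1 and 0, that one being *Kit*, which neurons also make. *Mcpt8* was at 0 counts in every group of 3 months, and *Ms4a2* and *Mcpt4* in control Cb. Tissue markers also moved with the genotype in F/M, where the 12 midbrain and thalamus genes summed to 518.4 to 532.8 CPM in controls and 387.4 to 443.4 CPM in *Tpp1*-/- mice and the 10 cerebellar genes to 333.1 to 363.3 and 291.3 to 327.6 CPM. The part of these markers in the results was not tested.

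The rest of the pathway was read from 6 lists of 96 genes. At 3 months 76 were tested, 9 of which passed the filter on low counts through their *Tpp1*-/- libraries, like *Fcgr4*, and are left out of the next counts and medians. Of the other 67 genes 3 were called higher and 1 lower in F/M, and 12 higher and 0 lower in Cb, beside 0.464% and 0.859% of all genes. At 1 month 0 of 73 were called by edgeR in either region, and at 2 months 1 of 70 in F/M (*Fyb*, an adaptor of immune cells, log2 fold change 0.59, edgeR adjusted p = 0.0817) and 0 in Cb.

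Among 6 ITAM adaptors and the receptors that use them, 1 was called higher in F/M and 4 in Cb, with a median log2 fold change of 0.58 and 1.25. *Clec7a*, a receptor for beta-glucans with an ITAM-like motif of its own, was among those left out and was also called, with a mean of 0.444 ± 0.219 CPM in control and 5.60 ± 0.796 CPM in *Tpp1*-/- F/M (SD, n = 3) and of 0.476 ± 0.196 and 8.45 ± 1.30 CPM in Cb (log2 fold changes 3.68 and 4.14, edgeR adjusted p = 3.28e-05 and 2.82e-06). *Tyrobp*, the ITAM adaptor of *Trem2*, rose in F/M by 1.10 and in Cb by 1.89 (log2, edgeR adjusted p = 0.0391 and 0.000372). *Treml2*, also left out, was called in Cb (2.32, edgeR adjusted p = 0.0319), and *Trem2*, *Cd300c2* and *Clec5a* were the other calls there.

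Of the other Fc receptors and chains, 4 of 12 were counted and *Fcrls*, an Fc receptor-like gene of microglia, was called in both regions (0.74 in F/M and 1.93 in Cb, edgeR adjusted p = 0.0227 and 5.66e-06). *Fcrls* is also 1 of the 12 microglia identity genes. Among 16 inhibitory receptors and phosphatases 1 was called higher in F/M and 4 in Cb, with medians of 0.24 and 0.39. *Ptprc* (1.00 and 1.21), the phosphatase CD45 that activates Src family kinases, was called in both regions. *Lilrb4a* (3.04 and 2.27) and *Cd22* (2.67 and 2.22), both ITIM receptors, were called in both but were among the genes left out, with 1 to 7 counts in each control library and 19 to 34 in each *Tpp1*-/- library. The calls in Cb included *Ptpn6*, the phosphatase SHP-1 that ITIMs recruit.

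Downstream of *Syk*, 0 of 19 adaptors and exchange factors were called in F/M and 2 in Cb, *Blnk* (2.53, edgeR adjusted p = 0.00559) and *Fyb* (1.07, edgeR adjusted p = 0.0239), with medians of 0.16 and 0.27. Of 10 Src family and Tec kinases and their regulators, 1 was called, *Btk* in Cb (1.45, edgeR adjusted p = 0.0195), with medians of 0.11 and 0.16. Of 12 phosphoinositide 3-kinase, phospholipase C and protein kinase C genes, 1 was called, *Prkcd* in F/M, which fell by 0.81 on the log2 scale (edgeR adjusted p = 0.0363), with medians of 0.08 and 0.01. *Prkcd* is also among the 12 midbrain and thalamus markers, whose sum was lower in *Tpp1*-/- F/M (above).

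**Figure D5:**
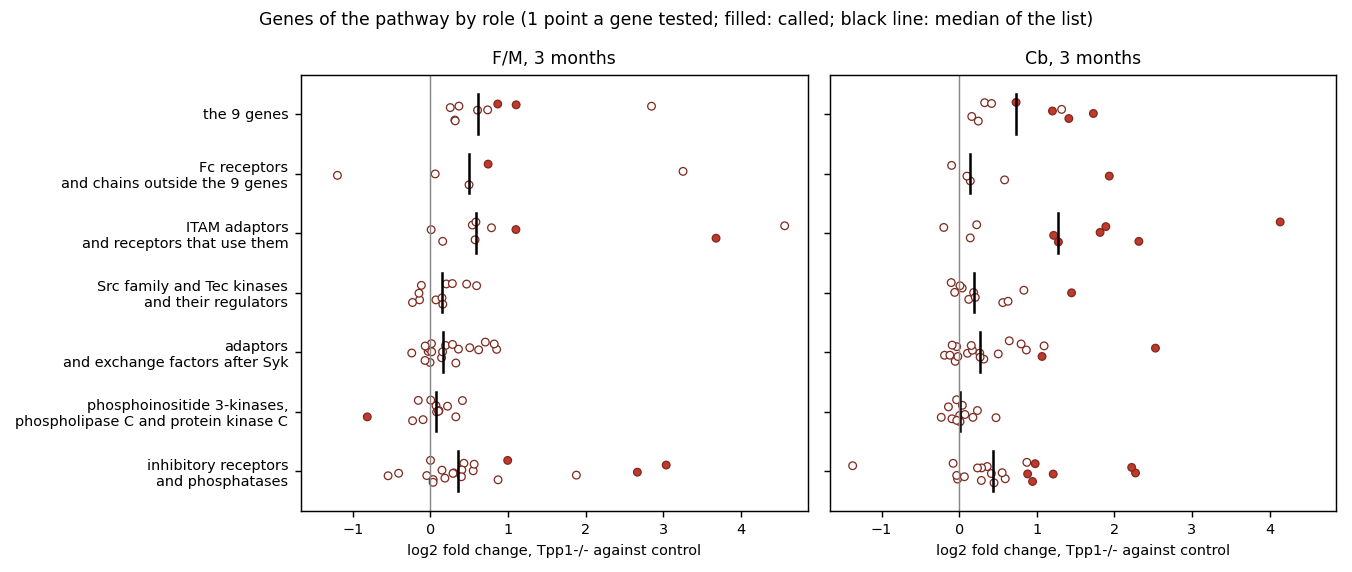
Log2 fold change in *Tpp1*-/- against control mice at 3 months (x axis) of every tested gene, by role (y axis), in F/M (left) and Cb (right). Filled points were called and the black line is the median of all genes drawn, those left out of the counts and *Fcgr4* included, which is 1.28 for ITAM adaptors and receptors in Cb and 0.01 for phosphoinositide 3-kinases, phospholipase C and protein kinase C.

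After the mean of each age and region was taken off, the genes whose log2 CPM went most like the mean of the 8 members tested at every age, over 36 libraries and 13413 genes, were *Gfap* (Pearson r = 0.968), *Ctss* (0.937), *Fcrls* (0.928), *C1qb* (0.924) and *C4b* (0.915). Between pairs of the 9 genes r ran from 0.0891 (*Fcgr1* and *Plcg2*) to 0.805 (*Fcgr2b* and *Fcgr3*), with a median of 0.417 over 36 pairs. *Fcgr2b* and *Fcgr3* share the run shown above, and multimapped reads were counted, so reads from it can enter both genes. These are descriptions over libraries that share the difference between the genotypes.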

How the data were processed

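RNA-seq libraries (TruSeq stranded mRNA per the labels, and 50-base single reads per the study's methods) covered both regions at 3 ages, with 3 libraries for each genotype. The authors aligned the reads to mm10 with STAR (2.5.2b per the submitters' processing notes) and deposited raw counts per gene. Per the file headers, the counts came from featureCounts 1.6.3 with GENCODE M21 and strand setting 1 at 1 month, 1.6.2 with M16 and setting 2 at 2 months, and 1.6.2 with M18 and setting 1 at 3 months, with fractional counting of multimapped reads. Every deposited value was whole. Strand was used, so *Gm38204*, opposite to *Fcgr2b*, and *Gm26857*, opposite to *Lyn*, were counted apart. The labels do not name the mouse behind each library, so F/M and Cb libraries may share mice, although they were fitted as independent, and p-values measure the spread between libraries.

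Counts were fitted for each age with edgeR 4.0.16 in R 4.3.3 (TMM, filterByExpr over 4 groups, quasi-likelihood, two-sided), with Benjamini-Hochberg adjustment over 17916, 17229 and 17224 genes. Calls needed an adjusted p below 0.1 and a change of 1.5-fold or more. Differences of the genotype effect between regions or ages had no fold minimum, and those between ages came from a fit of all 36 libraries over 18322 genes. Libraries of a group differed beyond sampling noise (chi-square per gene of at least 1.43 in 36 pairs). The fit was tested on simulated data. Alternatives were DESeq2 1.42.0, limma-voom (limma 3.58.1), other scaling, filters, thresholds and blocks, and leaving out each replicate. A replicate left out was taken from both regions of its genotype and, in the fit of all 36 libraries, from every age. Named genes were the 9 members, up to 3 called genes of each pathway list with the largest change, and the 5 genes most like the members; *Trem2*, *Cd300c2*, *Clec5a* and *Ptpn6* were named after their values were seen. The members and lists were chosen with earlier results of these data known. Genotype effects of some single marker genes are not reported here.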

Additional observations from a re-analysis of the deposited data

Results flagged for a closer look

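In Cb the *Tpp1*-/- effect differed between 2 and 3 months by the test of the difference for 4 of the 9 genes, with log2 changes of 1.67 (*Fcgr2b*), 1.62 (*Fcer1g*), 1.16 (*Fcgr3*) and 0.94 (*Inpp5d*). Between 1 and 3 months it differed in Cb for *Fcgr2b* (1.604) and *Fcgr3* (0.90). In F/M it differed between 2 and 3 months for *Fcgr3* (0.97). The annotation differed between all ages, the featureCounts version between 1 month and the later ages, and the strand setting between 2 months and the other ages. Age and processing cannot be told apart.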

How the results depend on the processing

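Of 842 alternative values of single genes, 810 kept their direction and side of the threshold, 22 lost and 7 gained a call, and 3 changed sign, none of them called: *Fcgr3* in F/M at 2 months (-0.19 to 0.0635 when 1 replicate was left out, above 0 without control replicate 2), *Lyn* in Cb at 2 months (-0.0188 to 0.12, below 0 without *Tpp1*-/- replicate 2) and *Fcgr4* in control F/M against Cb at 3 months (-1.79 to 0.44, above 0 without control replicate 2). The cause was not tested. The count of 2 genes called in F/M at 3 months became 4 with the 6 libraries alone and 1 with a replicate block, and lay between 0 and 3 when 1 replicate was left out. The count of 4 in Cb became 2 with the 6 libraries alone and stayed at 4 whichever replicate was left out. Leaving out 1 replicate gave 0 to 1 in Cb at 1 month, 0 to 1 for the change from 2 to 3 months in F/M and 0 to 1 for the change from 1 to 3 months in Cb. The latter was 1 with limma-voom, and the change from 1 to 3 months in F/M was 1 with no filter on low counts. The deviations of same-numbered control and *Tpp1*-/- libraries had r from -0.0855 to 0.229, over 0.1 in 6 of 18 pairs, 4 of them at 1 month, where replicate 1 is the female of each group, and the replicate block moved no other count of calls within an age by over 1.5 times. For same-numbered F/M and Cb libraries of a genotype r was 0.0947 to 0.198 at 1 month, against -0.13 to 0.00844 for other numbers, and at most 0.0987 at 2 and 3 months. With a replicate block that takes these as 1 mouse, 6, 7 and 7 genes were called between the regions at 1, 2 and 3 months and 0 in the difference of the genotype effect, as without it. The order of levels per length was the same in TPM in 12 of 12 groups. Depth limits *Fcgr4*, with 0 to 21 counts a library.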
